A study of Mus musculus with 8 samples.

Results

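The subject here is the Tet gene family, Tet1, Tet2 and Tet3, in mouse embryonic stem cells that had differentiated for 5 days. The members were taken by gene symbol and make up 3 of the 27998 gene rows of each count table. They were described in each library, in kinds of cell gated by marker genes, and against markers of pluripotency and mesoderm read from the same cells. The study asked what TET proteins do as embryonic stem cells differentiate toward the heart lineage. It comprised 2 single-cell RNA libraries, 1 from cells labelled wild type (WT) and the other from cells labelled Tet-triple knockout (TKO), beside samples enriched for 5-hydroxymethylcytosine that were not analysed here. Cells of the E14 line with an EmGFP reporter at NKX2-5, a gene of early heart cells, had been kept on mitotically inactive mouse embryonic fibroblast feeders with leukemia inhibitory factor. They were then made into embryoid bodies in hanging drops without that factor. No treatment was recorded for either library. The labels do not say which part of each Tet gene was deleted, whether the TKO cells were a single clone, or whether embryoid bodies were pooled.

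TET proteins are dioxygenases that use iron and alpha-ketoglutarate to oxidise 5-methylcytosine to 5-hydroxymethylcytosine and further to 5-formylcytosine and 5-carboxylcytosine. The last forms are cut out by thymine DNA glycosylase and replaced by base excision repair, which completes active demethylation. Tet1 is known for high expression in pluripotent cells, Tet2 for its roles in stem cells and in blood formation, and Tet3 for acting on the paternal genome after fertilisation and for expression in many differentiated cells. In the GRCm38.p6 build, the RefSeq annotation placed Tet1 (ENSMUSG00000047146) on chromosome 10 from 62804570 to 62887469. Tet2 (ENSMUSG00000040943) lay on chromosome 3 from 133463677 to 133545136, and Tet3 (ENSMUSG00000034832) on chromosome 6 from 83362373 to 83457208. A count covers the whole gene row, so exons and isoforms were not told apart.

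The WT-labelled library kept 4389 cells with 37503810 unique molecular identifiers (UMIs, each standing for 1 captured transcript), and the TKO-labelled library kept 3196 cells with 33483998 UMIs. The median cell held 7847 and 9678 UMIs. Mitochondrial transcripts took a median 3.44% and 4.05% of a cell's UMIs, and ribosomal protein transcripts 31.1% and 30.1%. The libraries shared 21 cell barcodes. Each genotype had 1 library, so no test between genotypes was possible, and genotype, culture and library preparation cannot be told apart. Ranges given below in parentheses or called intervals are 95% intervals that cover counting error only. Levels are given as CPM, the UMIs of a gene scaled to a total of 1000000 UMIs over the same cells. They carry no correction for transcript length, so they were compared between cells and not between the members.

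Transcripts of all 3 targeted genes were present in the library labelled TKO. Tet1 gave 462 UMIs, or 12.3 CPM (11.2 to 13.5), among WT-labelled cells, against 762 UMIs, or 22.8 CPM (21.2 to 24.4), among TKO-labelled cells. Its level was therefore higher where the gene was labelled as knocked out, by 1.85-fold (1.64 to 2.08). Because the deleted part is not stated, sequenced tags may lie outside it, and the presence of these transcripts checks neither the label nor the loss of protein.

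Tet2 was the most sparsely counted member. It gave 256 UMIs at 6.83 CPM (6.02 to 7.72) among WT-labelled cells, against 154 UMIs at 4.60 CPM (3.90 to 5.39) among TKO-labelled cells, a TKO over WT ratio of 0.674 (0.548 to 0.826). Tet3 gave 1092 UMIs at 29.1 CPM (27.4 to 30.9) and 680 UMIs at 20.3 CPM (18.8 to 21.9), a ratio of 0.698 (0.633 to 0.768). The Tet1 ratio stood on the opposite side of 1 from those of Tet2 and Tet3.

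Many genes differed as much between these libraries. Among 15344 genes with at least 10 UMIs, 41.8% differed by at least 1.5-fold in either direction, and of the members 1 of 3, Tet1, did. In the upward direction 23.8% of genes passed that fold, and 15.3% had a ratio at least that of Tet1. In the downward direction 18.0% of genes passed, while 18.5% had a ratio at most that of Tet2 and 19.6% at most that of Tet3. The member ratios thus lay within the range that a large share of all genes reached. The median gene had a log2 ratio of 0.14, and scaling by the median of ratios moved every log2 ratio by -0.13 without turning the direction of any member. Under that scaling the ratio was 1.68 for Tet1, 0.614 for Tet2 and 0.636 for Tet3, so 3 of 3 members passed 1.5-fold, beside 40.3% of all genes. Tet2 also passed, at 0.656, with mitochondrial, ribosomal protein and globin genes left out of the total.

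Tet1 and Tet3 levels differed little with depth within a library. When cells were split into 4 equal groups by UMI total, Tet1 stood between 12.0 and 12.9 CPM in the WT-labelled groups and between 20.2 and 24.7 in the TKO-labelled ones. Tet3 ranged from 28.0 to 29.9 over the WT-labelled groups and from 19.1 to 23.1 over the TKO-labelled groups. Neither member's ranges over depth overlapped between libraries. Tet2 ranged from 6.03 to 9.11 and from 3.69 to 5.73, also without overlap.

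Few cells yielded a Tet transcript. Without thinning, Tet1 was detected in 424 of the WT-labelled cells (9.66%) and 631 of the TKO-labelled cells (19.7%), and no cell held more than 3 and 4 of its UMIs. After every cell was thinned to 4000 UMIs, which left out 372 and 190 shallower cells and kept 4017 and 3006, Tet1 was found in 4.58% (3.96 to 5.27) and 8.45% (7.48 to 9.50) of cells. Thinning thus kept the order of the libraries for Tet1.

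Tet2 was found in 5.65% and 4.57% of cells before thinning and in 2.64% (2.17 to 3.18) and 1.86% (1.41 to 2.41) after it, intervals that overlapped. Tet3 was found in 21.1% and 18.4% before thinning and in 11.3% (10.3 to 12.3) and 7.82% (6.88 to 8.84) after it. At least 1 of the members was found in 17.2% of thinned cells in each library, 693 WT-labelled and 516 TKO-labelled cells. The libraries therefore differed in which member was detected and hardly in how many cells had any.

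Free RNA in droplets can give such detections, and no kind of cell here is known to lack all members, so the kind with the lowest WT-labelled levels, red blood cell precursors, served as reference. Erythroid-like cells of the WT-labelled library, gated as described below and with a median of 9860 UMIs, held a thinned Tet1 UMI in 1.82% of 329 cells (0.672 to 3.93). The same share was found for Tet2, while Tet3 was found in 6.69% (4.24 to 9.95). The thinned shares of Tet2 in the libraries, 2.64% and 1.86%, lie within the erythroid-like interval. This kind was picked for its low levels and may itself express Tet2, so its detections do not measure free RNA. Whether the Tet2 detections are background was therefore not tested, and Tet2 detection per cell is read no further. The Tet1 shares of both libraries and the Tet3 share of the WT-labelled one were above the erythroid-like intervals, while the TKO-labelled Tet3 share of 7.82% was not. The reference was picked for low levels within the WT-labelled library, so this order was partly set by that choice. Whether Tet1 and Tet3 detections are background was likewise not tested. The TKO-labelled library had 15 erythroid-like cells, too few for a reference of its own. In them Tet3 stood at 33.0 CPM (10.7 to 76.9) on 5 UMIs.

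Tet1 and Tet3 were rarely caught in the same cell. Both were found in 28 of 4017 thinned WT-labelled cells, 0.697% (0.464 to 1.01), where the product of the 2 separate shares is 0.515%. In the TKO-labelled library both were found in 22 of 3006 cells, 0.732% (0.459 to 1.11), against a product of 0.661%. Both products lay within the counting intervals, so neither joint presence nor mutual exclusion of the transcripts was detectable at this depth.

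Cells were next gated by kind. A thinned cell was given to a kind when it held at least 3 of the roughly 10 markers of that kind's list, with 15 lists in all, and the Tet levels of the gated cells were then taken from all their UMIs. Of WT-labelled cells 77.6% fell into 1 kind, and of TKO-labelled cells 34.7% did, leaving 1946 TKO-labelled cells that passed no gate. The gate is a threshold on a range and not a natural boundary. Among WT-labelled cells, 957 held exactly 3 lateral mesoderm markers and 765 held exactly 2, and among TKO-labelled cells 97 held exactly 3 formative epiblast markers and 135 held exactly 2.

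The kinds present hardly overlapped between the libraries. Kinds with at least 30 WT-labelled cells were matrix-rich mesenchyme-like (1219 cells), lateral mesoderm-like (1203), erythroid-like (329), endothelial-like (135), extraembryonic endoderm-like (115) and mesothelium-like (39). Among TKO-labelled cells they were lateral mesoderm-like (278 cells), definitive endoderm-like (192), formative epiblast-like (152), cardiac progenitor-like (140), cardiomyocyte-like (130) and head and paraxial mesoderm-like (71). The labels call all of these embryonic stem cells. Defining markers of the naive pluripotent state, the state of cultured stem cells, gated 16 WT-labelled and 12 TKO-labelled cells. The summed level of the 10 matrix markers, genes that the feeder fibroblasts are also known to express, was 1194 CPM over WT-labelled cells and 38.8 over TKO-labelled cells. The part of feeder cells in the WT-labelled Tet levels was not tested. Without the matrix-rich and erythroid-like cells the TKO over WT ratios were 1.83 for Tet1, 0.656 for Tet2 and 0.679 for Tet3. That subset does not single out feeder cells, because WT-labelled lateral mesoderm-like cells, which stayed in it, held a median of 2 matrix markers.

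**Figure D1:**
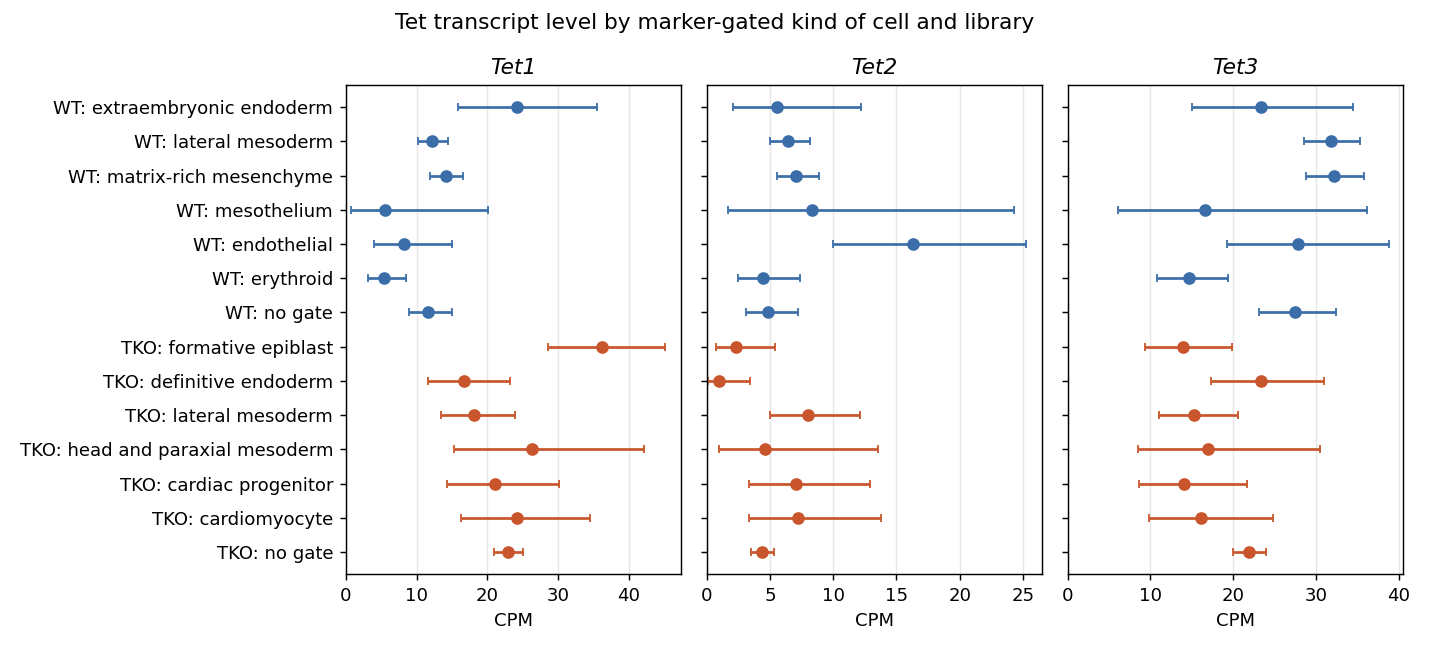
Level of each member in CPM (x axis) in every gated kind with at least 30 cells and in cells passing no gate (y axis), in the WT-labelled (blue) and TKO-labelled (orange) library. Points are levels over all UMIs of the gated cells and bars are 95% counting intervals. Tet1 stands at 36.1 in TKO-labelled formative epiblast-like cells and at 5.39 in WT-labelled erythroid-like cells, and Tet2 stands at 16.3 in WT-labelled endothelial-like cells.

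Among TKO-labelled kinds with at least 30 cells Tet1 was highest in formative epiblast-like cells, which resemble the epiblast as it leaves naive pluripotency. They held 78 Tet1 UMIs at 36.1 CPM (28.6 to 45.1). The other TKO-labelled cells stood at 21.7 CPM, a ratio of 1.66 (1.30 to 2.11). The order then ran through head and paraxial mesoderm-like cells at 26.3, cardiomyocyte-like cells at 24.1 and cardiac progenitor-like cells at 21.1. Lateral mesoderm-like cells followed at 18.2 and definitive endoderm-like cells at 16.7. Each neighbour in that order overlapped the next in its interval, while the formative epiblast-like interval lay above those of lateral mesoderm-like (13.5 to 23.9) and definitive endoderm-like cells (11.6 to 23.3).

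Among WT-labelled kinds with at least 30 cells Tet1 was highest in extraembryonic endoderm-like cells, which express apolipoproteins and transthyretin as the yolk sac does. They held 26 UMIs at 24.2 CPM (15.8 to 35.5), against 11.8 in the other cells, a ratio of 2.05 (1.33 to 3.05). Matrix-rich mesenchyme-like cells stood at 14.1, lateral mesoderm-like cells at 12.2 and endothelial-like cells at 8.17. Mesothelium-like cells stood at 5.54, on 2 UMIs. Erythroid-like cells closed the order at 5.39 (3.19 to 8.51), a ratio to the other cells of 0.419 (0.246 to 0.670). Neighbours again overlapped, and the erythroid-like interval lay below that of lateral mesoderm-like cells (10.2 to 14.4).

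The pluripotent kinds of the WT-labelled library held fewer than 30 cells each, so their levels are loosely bounded. Its 6 formative epiblast-like cells held 3 Tet1 UMIs, a ratio to the other cells of 4.11 with an interval from 0.844 to 12.1. The 16 naive pluripotent-like cells held 7 Tet1 UMIs at 41.7 CPM (16.8 to 86.0), a ratio to the other cells of 3.47 (1.39 to 7.21), and the 12 of the TKO-labelled library held 5 at 30.8 (10.0 to 72.0). These intervals overlap, so a difference between the libraries in naive pluripotent-like cells was not detectable at this depth.

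Tet2 followed another order among kinds with at least 30 cells. Endothelial-like cells were highest in the WT-labelled library and lateral mesoderm-like cells in the TKO-labelled one. In WT-labelled endothelial-like cells, marked by Cdh5, Cldn5 and Esam, Tet2 gave 20 UMIs at 16.3 CPM (9.98 to 25.2), against 6.27 in the other cells, a ratio of 2.61 (1.56 to 4.13). The other 5 WT-labelled kinds lay between 4.49 in erythroid-like and 8.32 in mesothelium-like cells. The endothelial-like interval lay above those of matrix-rich mesenchyme-like (5.55 to 8.87), lateral mesoderm-like (5.03 to 8.16) and erythroid-like cells (2.51 to 7.40). It overlapped those of the mesothelium-like and extraembryonic endoderm-like cells. The TKO-labelled library had 26 endothelial-like cells with 4 Tet2 UMIs at 12.3 CPM (3.34 to 31.4), which overlaps the WT-labelled interval. Among smaller kinds, the 16 WT-labelled naive pluripotent-like cells held 4 Tet2 UMIs at 23.8 CPM (6.50 to 61.0). Their ratio to the other cells was 3.65 (0.987 to 9.47), which spans 1. The 12 TKO-labelled ones held 1 Tet2 UMI.

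Among TKO-labelled kinds of that size Tet2 was highest in lateral mesoderm-like cells, with 22 UMIs at 7.99 CPM (5.01 to 12.1) and a ratio to the other cells of 1.87 (1.13 to 2.95). Cardiomyocyte-like cells stood at 7.24 and cardiac progenitor-like cells at 7.03. Head and paraxial mesoderm-like cells stood at 4.64 on 3 UMIs and formative epiblast-like cells at 2.32 on 5. Definitive endoderm-like cells, marked by Sox17, Foxa2 and Cer1, were at the bottom with 2 Tet2 UMIs in 192 cells, 0.955 CPM (0.116 to 3.45). Their ratio to the other cells was 0.197 (0.0237 to 0.725), and their interval lay below that of lateral mesoderm-like cells.

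Tet3 was high in the mesenchymal kinds of the WT-labelled library. It stood at 32.2 CPM (28.8 to 35.8) in matrix-rich mesenchyme-like and 31.8 (28.6 to 35.4) in lateral mesoderm-like cells. Endothelial-like cells followed at 27.8, extraembryonic endoderm-like cells at 23.3 and mesothelium-like cells at 16.6. Erythroid-like cells were lowest at 14.7 (10.9 to 19.4), a ratio to the other cells of 0.484 (0.355 to 0.644). Erythroid-like cells were thus lowest of these WT-labelled kinds for all 3 members, with an interval of the ratio to the other cells below 1 for Tet1 and Tet3 and, for Tet2, one that spans 1 (0.362 to 1.11).

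The TKO-labelled kinds spread less in Tet3, and all their intervals overlapped. Definitive endoderm-like cells stood at 23.4 CPM, head and paraxial mesoderm-like cells at 17.0, cardiomyocyte-like cells at 16.1 and lateral mesoderm-like cells at 15.3. Cardiac progenitor-like cells stood at 14.1. Formative epiblast-like cells, highest in Tet1, were lowest in Tet3 at 13.9 (9.38 to 19.8), a ratio to the other cells of 0.673 (0.450 to 0.970) that turned to 1.08 (0.724 to 1.56) when gates were read at 2500 UMIs per cell. Cells passing no gate held Tet3 at 21.9 (20.0 to 24.0), 1.29 times (1.09 to 1.53) the level of the other TKO-labelled cells.

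Lateral mesoderm-like cells, which include the source of heart and body wall, were the only kind with at least 30 cells in each library. In them Tet1 stood at 12.2 CPM with the WT label and 18.2 with the TKO label, a ratio of 1.49 (1.06 to 2.08). Tet3 stood at 31.8 and 15.3, a ratio of 0.480 (0.339 to 0.662). Tet2 stood at 6.46 and 7.99, a ratio of 1.24 (0.730 to 2.02). For Tet1 and Tet3 the direction within the kind was that of the whole libraries, whereas the Tet2 interval spanned 1.

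The kind may not be the same population in both libraries. Its leading genes were ranked against the other cells of the same library. Beside the markers they included Rgs5, Cdx2 and Hoxc8 among WT-labelled cells, against Plac1, Dlk1, Tdo2 and Lypd6 among TKO-labelled cells. The other cells also differed between the libraries, so these lists do not compare the kind directly. The part of makeup within the kind was not tested. The Tet1 ratio was 1.12 (0.710 to 1.77) with gates read at 2500 UMIs per cell, 1.28 (0.906 to 1.80) without cells passing several gates and 1.37 (0.981 to 1.92) without the cells of highest doublet score. The Tet3 ratio lay between 0.428 and 0.505 over the 6 alternatives that gave lateral mesoderm-like cells alone. With gates of at least 2 markers, endothelial-like cells could also be compared, 150 against 39 cells. There Tet3 stood at 26.5 and 28.0 CPM, a ratio of 1.06 (0.528 to 2.01), and Tet1 at 8.09 and 12.0, a ratio of 1.49 (0.451 to 4.38).

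Cells outside the gates were also set side by side, 549 of 4017 WT-labelled and 1946 of 3006 TKO-labelled cells. They are a remainder and not a kind, so their makeup may differ between the libraries. Tet1 stood at 11.7 and 22.9 CPM in these cells, a ratio of 1.96 (1.49 to 2.60). Tet3 stood at 27.5 and 21.9, a ratio of 0.799 (0.660 to 0.971), and Tet2 at 4.87 and 4.36, a ratio of 0.895 (0.570 to 1.45). Among these unlike remainders Tet1 was higher and Tet3 lower in the TKO-labelled library, and a difference in Tet2 was not detectable.

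The balance of Tet1 and Tet3 can be compared between kinds without a scale per cell. Tet1 made up 29.6% (27.3 to 32.0) of the Tet1 and Tet3 UMIs of all thinned WT-labelled cells and 52.9% (50.2 to 55.5) of those of the TKO-labelled cells, counted before thinning. Among the WT-labelled kinds the share lay between 22.7% in endothelial-like and 30.5% in matrix-rich mesenchyme-like cells, except for extraembryonic endoderm-like cells at 51.0% (36.6 to 65.3). These endoderm-like cells had a Tet1 share whose interval lay above those of the lateral mesoderm-like and matrix-rich mesenchyme-like cells.

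Among TKO-labelled kinds the share was 72.2% (62.8 to 80.4) in formative epiblast-like cells. It was 60.7% in head and paraxial mesoderm-like cells and 60.0% in both the cardiac progenitor-like and cardiomyocyte-like cells, each on 20 Tet3 and 30 Tet1 UMIs. Definitive endoderm-like cells were lowest at 41.7% (31.0 to 52.9), below the formative epiblast-like interval. Lateral mesoderm-like cells stood at 54.3% (43.6 to 64.8) against 27.7% (23.7 to 31.9) for the same gate with the WT label.

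**Figure D2:**
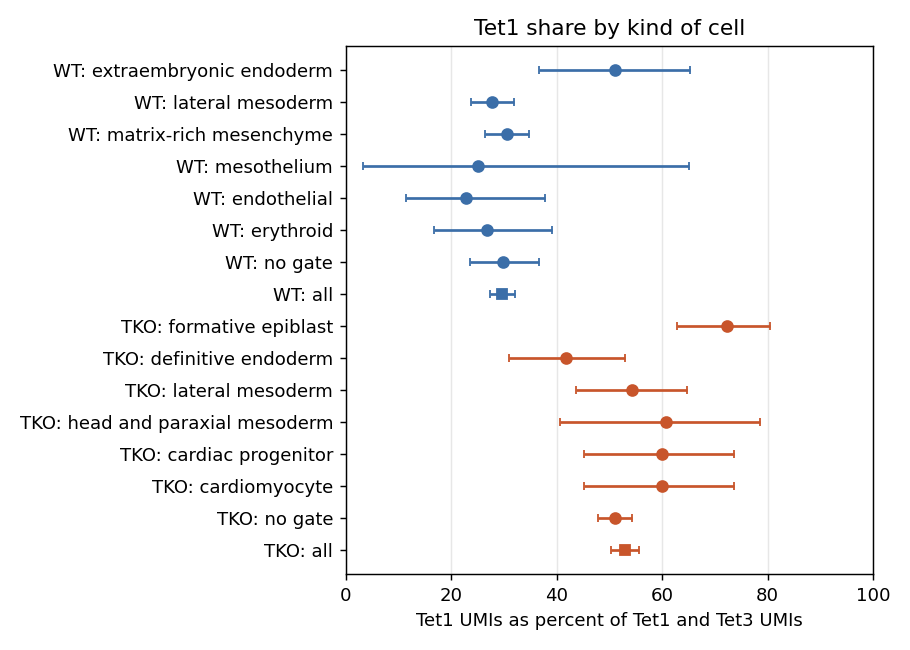
Tet1 UMIs as percent of Tet1 and Tet3 UMIs together (x axis) by gated kind (y axis) in the WT-labelled (blue) and TKO-labelled (orange) library, with 95% binomial intervals and all thinned cells as squares. Lateral mesoderm-like cells stand at 27.7% and 54.3%, and TKO-labelled formative epiblast-like cells at 72.2%.

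Members were then read against pluripotency markers in the same cells, by how many of 14 markers a thinned cell held. WT-labelled Tet1 stood at 11.2 CPM in 3629 cells without any, 16.8 in 324 cells with 1, 45.9 in 29 cells with 2 and 40.4 in 35 cells with 3 or more. The last group stood 3.61-fold (1.95 to 6.13) above the first, on 14 UMIs. TKO-labelled Tet1 stood at 21.5, 18.9, 23.6 and 32.1 CPM in 1334, 856, 459 and 357 cells, and the last group stood 1.49-fold (1.22 to 1.82) above the first.

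The TKO-labelled groups also differed in depth. Cells with 3 or more pluripotency markers had a median of 13328 UMIs and cells without any had 9130, while the Tet1 levels of the 4 depth groups lay between 20.2 and 24.7. When markers were counted on all UMIs of a cell in place of 4000, the ratio was 1.19 (0.987 to 1.44). The size of the Tet1 difference in this library therefore depended on how the markers were counted. The WT-labelled ratio stayed between 3.27 and 4.01 over 4 alternatives.

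Tet2 ran the other way in the TKO-labelled library. It stood at 6.13, 5.16, 2.07 and 2.06 CPM with 0, 1, 2 and 3 or more pluripotency markers, and the last group stood at 0.335 (0.155 to 0.648) times the first. WT-labelled Tet2 had 5 UMIs in the cells with 3 or more markers, a ratio of 2.19 (0.704 to 5.19) that spans 1. Tet3 showed no separation beyond counting error in either library, with ratios of 0.491 (0.159 to 1.15) and 0.889 (0.688 to 1.14).

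Mesoderm markers, also 14, gave another pattern. WT-labelled Tet3 stood at 19.2 CPM in 511 cells without any, then at 28.8, 30.2 and 32.7 in cells with 1, 2 and 3 or more, a ratio of 1.70 (1.35 to 2.16) between the ends. The step lay between cells with no mesoderm marker and cells with 1. Erythroid-like cells, 329 in this library, held Tet3 at 14.7 CPM, and their part in the group without a mesoderm marker was not tested. TKO-labelled Tet2 stood at 3.38, 3.67, 4.56 and 8.16 CPM, a ratio of 2.42 (1.56 to 3.78). Tet1 did not separate with mesoderm markers, at ratios of 1.22 (0.882 to 1.69) with the WT label and 0.866 (0.701 to 1.07) with the TKO label, nor did TKO-labelled Tet3 at 0.873 (0.689 to 1.10).

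**Figure D3:**
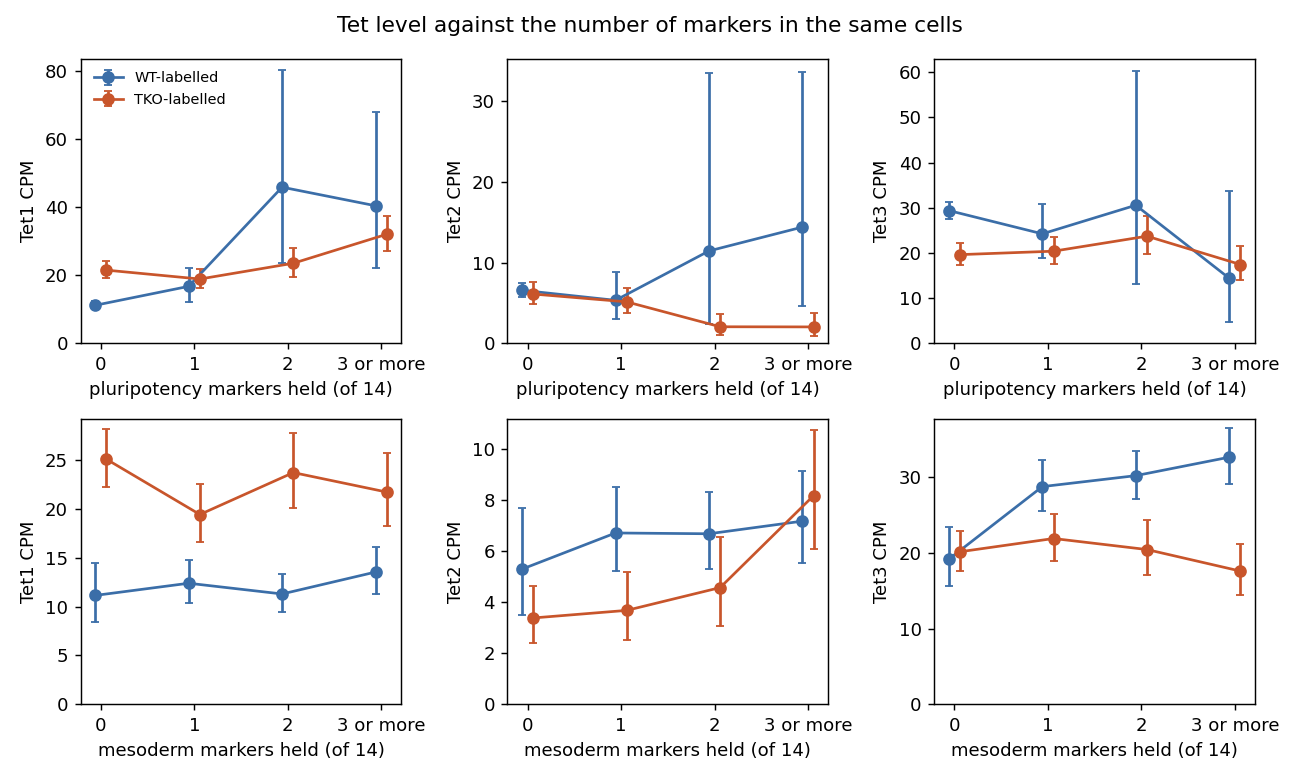
Level of each member in CPM (y axes, from 0) against the number of pluripotency (upper row) or mesoderm (lower row) markers held by a thinned cell (x axes), in the WT-labelled (blue) and TKO-labelled (orange) library, with 95% counting intervals. Tet1 reaches 40.4 and 32.1 in cells with 3 or more pluripotency markers, and TKO-labelled Tet2 reaches 8.16 in cells with 3 or more mesoderm markers.

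Members were also read against single pluripotency markers, beginning with Tet1. A cell can hold several of these markers, so their ratios are not independent of each other. Among WT-labelled cells 7 of the 14 markers were held by at least 30 thinned cells, and Tet1 was higher in cells holding the marker for 6 of them. Cells with Pou5f1, the gene of the core pluripotency factor OCT4, held Tet1 at 37.6 CPM against 11.8 without, a ratio of 3.18 (1.87 to 5.09). For Dppa5a the ratio was 3.27 (1.95 to 5.18), for Zfp42, a naive-state gene, 3.21 (1.74 to 5.44), and for L1td1 2.64 (1.20 to 5.05). It was 2.49 (1.32 to 4.30) for Sox2, the partner of OCT4, and 2.26 (1.61 to 3.09) for Epcam, an adhesion gene of pluripotent and epithelial cells. Dppa4 was the exception at 0.780 (0.252 to 1.83).

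Among TKO-labelled cells 12 of the 14 markers could be read, and the Tet1 ratio was above 1 for 9, with an interval above 1 for 5. Tet1 stood at 37.0 CPM in 329 cells with Pou5f1 and 20.4 in those without, a ratio of 1.81 (1.52 to 2.16). The ratio was 1.81 also for L1td1 (1.23 to 2.58) and for Pou3f1 (1.38 to 2.35), a gene of the formative epiblast. It was 1.69 (1.33 to 2.14) for Utf1 and 1.38 (1.11 to 1.71) for Sox2. Fgf5 and Otx2, genes of the same post-implantation stage, showed no separation, at 0.929 (0.666 to 1.27) and 1.10 (0.928 to 1.29). Epcam, at 2.26 in the WT-labelled library, gave 0.939 (0.805 to 1.09) here, where 1021 cells held it.

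The TKO-labelled Tet2 ratio was below 1 for 9 of 12 pluripotency markers, with an interval below 1 for 4. It was 0.397 (0.178 to 0.776) for Pou5f1, 0.378 (0.102 to 0.988) for Utf1, 0.460 (0.272 to 0.739) for Otx2 and 0.478 (0.315 to 0.709) for Epcam. Otx2 and Epcam were held by 696 and 1021 cells, where the formative epiblast gate took 152, so most cells holding them lay outside that gate. The ratio was above 1 for 3 markers, Tdgf1 at 1.93 (0.817 to 3.91), Zfp42 at 1.45 (0.463 to 3.46) and L1td1 at 1.38 (0.441 to 3.29). These intervals span 1. The WT-labelled Tet2 ratio was above 1 for 5 of 7 markers and ran from 0.344 for Sox2 to 2.51 (1.07 to 5.04) for Dppa5a, each on at most 9 UMIs. Dppa5a gave the only one of these 7 intervals that excludes 1, on the opposite side from the 4 TKO-labelled intervals that exclude 1. The Tet3 ratio was below 1 for 6 of 7 WT-labelled and 10 of 12 TKO-labelled markers, but every WT-labelled interval spanned 1, and so did 10 of the 12 TKO-labelled ones. The exceptions were Utf1, where the TKO-labelled Tet3 ratio was 0.543 (0.349 to 0.809), and Epcam, where it was 1.21 (1.03 to 1.42).

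Single mesoderm markers divided over Tet2 in the TKO-labelled library, where its ratio was above 1 for 7 of the 13 markers that could be read and below 1 for 6. Tet2 stood at 10.4 CPM in 211 cells with Hand1, a factor of lateral and heart mesoderm, and at 4.16 in those without, a ratio of 2.50 (1.55 to 3.89). The ratio was 1.95 (1.33 to 2.83) for Hand2, its relative, and 1.78 (1.13 to 2.72) for Foxf1, a splanchnic mesoderm factor. It was 1.74 (1.04 to 2.77) for Pdgfra, a receptor of mesoderm progenitors, and 1.67 (1.17 to 2.37) for Mef2c, a factor of heart, muscle and vessels. Isl1 and Tbx20, likewise genes of heart progenitors, gave ratios below 1, at 0.822 (0.538 to 1.22) and 0.715 (0.258 to 1.59). So did Eomes at 0.398 (0.0478 to 1.46), Mesp1 at 0.839 (0.101 to 3.09), T at 0.889 (0.107 to 3.27) and Foxc1 at 0.898 (0.508 to 1.49), and all 6 of these intervals span 1.

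In the WT-labelled library the Tet2 ratio was above 1 for 4 of 9 readable mesoderm markers and below 1 for 5. Its interval lay above 1 for 2 of them. These were Mef2c, at 1.79 (1.24 to 2.52), and Kdr, the VEGF receptor of endothelial and early mesoderm cells, at 1.49 (1.06 to 2.07). There the Hand1 ratio for Tet2 was 0.949 (0.711 to 1.28), with Hand1 held by 2994 of the 4017 cells. Tet3 was higher with Hand1 in that library, at 1.26 (1.09 to 1.47), and was above 1 for 8 of the 9 mesoderm markers that could be read. In the TKO-labelled library Tet3 was below 1 for 9 of 13, among them Foxf1 at 0.754 (0.563 to 0.992). Apart from Hand1 and Foxf1, respectively, these Tet3 intervals span 1. The part of erythroid-like cells in the WT-labelled Hand1 ratio for Tet3 was not tested. For Tet1 every interval against a mesoderm marker held by at least 30 cells included 1, with ratios from 0.679 to 1.33 over both libraries.

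**Figure D4:**
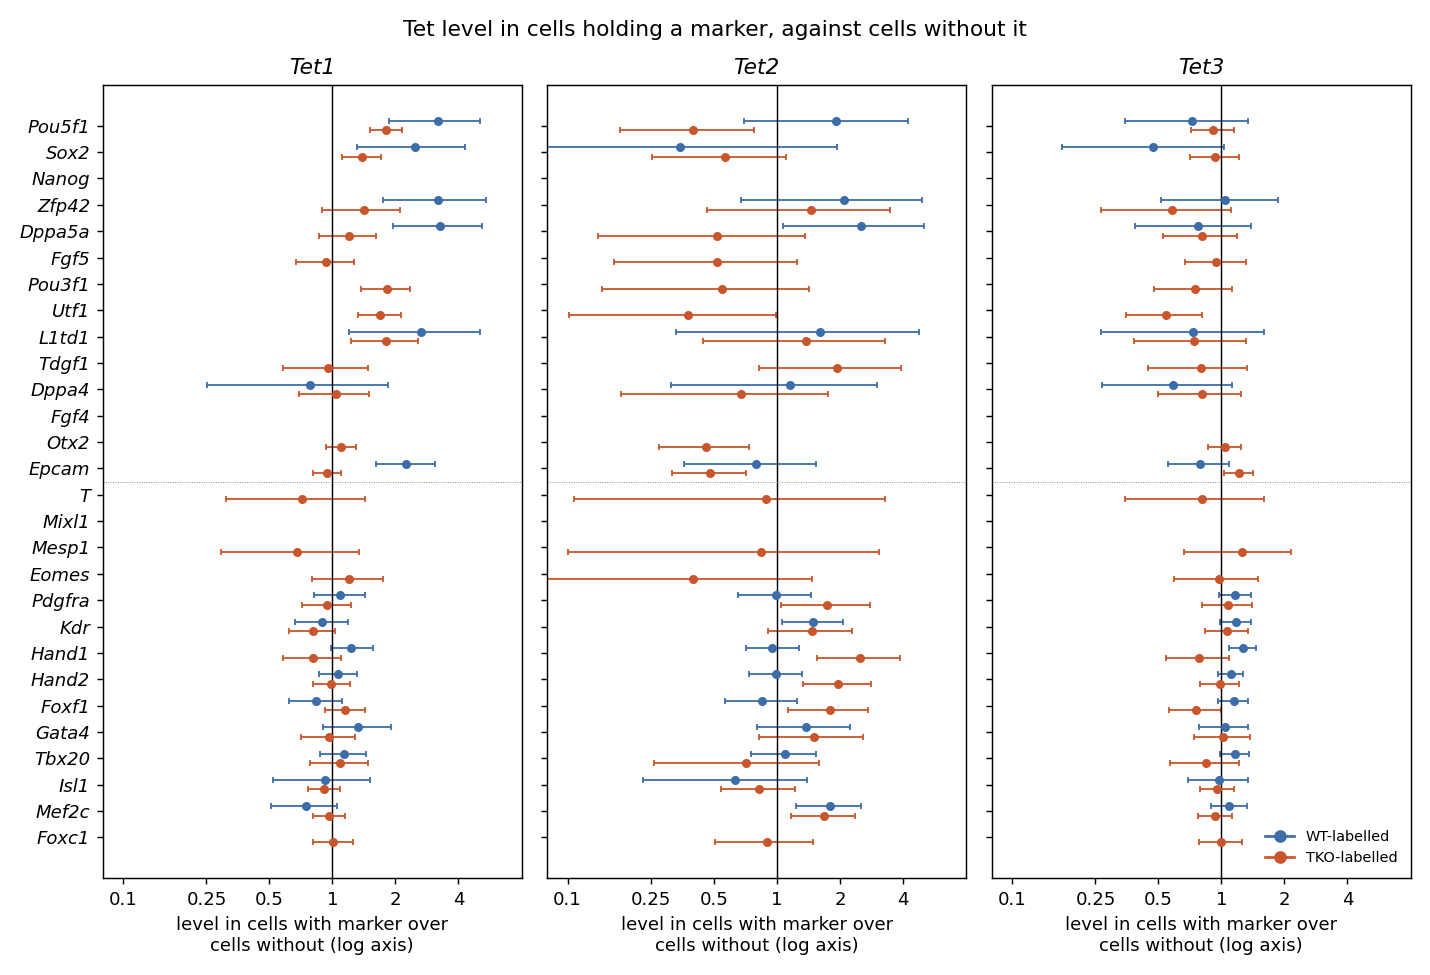
Ratio of each member's level in thinned cells holding a marker to that in cells without it (x axis, log scale) for 14 pluripotency markers above the dotted line and 14 mesoderm markers below it (y axis), in the WT-labelled (blue) and TKO-labelled (orange) library. Bars are 95% counting intervals and markers held by fewer than 30 cells are left blank. For Pou5f1 the Tet1 ratio is 3.18 and 1.81, and for Hand1 the TKO-labelled Tet2 ratio is 2.50.

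Genes that work with or beside the TET enzymes were described by 5 lists of 70 genes, of which 67 had at least 10 UMIs. Between the libraries 14 of them were at least 1.5-fold higher and 9 at least 1.5-fold lower in the TKO-labelled one, 34.3% in all beside 41.8% of all genes. At 2-fold the counts were 5 and 4, where 25.9% of all genes passed. The median log2 ratio of the listed genes was 0.25 beside 0.14 for all genes. Over all lists the share past 1.5-fold did not exceed that of all genes, while the single lists lay on both sides of it.

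Among 8 genes that write or maintain methylation, 2 were higher and 1 lower by that fold, 37.5% of the list. Dnmt3b, the de novo methyltransferase of the epiblast, stood at 22.7 CPM in WT-labelled and 177.4 CPM in TKO-labelled cells, a ratio of 7.83 (7.28 to 8.42). Its cofactor Dnmt3l stood at 0.480 and 0.836, with an interval from 0.930 to 3.34. Dnmt1, which copies methylation at replication, and Dnmt3a stood at ratios of 1.00 (0.942 to 1.07) and 0.999 (0.931 to 1.07), and Uhrf1, which recruits DNMT1, at 1.25. Zfp57, which protects imprinted methylation, stood at 16.4 and 6.78, a ratio of 0.413 (0.354 to 0.482).

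Of 14 genes in base excision after oxidation, 6 were higher and 2 lower by 1.5-fold, 57.1% of the list beside 41.8% of all genes. Tdg, the glycosylase that removes formyl- and carboxylcytosine and is given for that role, stood at 51.3 and 77.7 CPM, a ratio of 1.52 (1.43 to 1.61). Gadd45b, a stress gene linked to demethylation, stood at 3.15 and 12.5, a ratio of 3.96 (3.22 to 4.90), and its relative Gadd45g at 98.4 and 27.3, a ratio of 0.278 (0.258 to 0.298). The glycosylase gene Mbd4 had a ratio of 2.00 (1.68 to 2.38) and the repair polymerase gene Polb 1.69 (1.57 to 1.82). The glycosylase genes Neil3 and Neil2 had ratios of 0.646 (0.530 to 0.785) and 0.710 (0.417 to 1.19).

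Of 14 measured partners and regulators of TET proteins, 5 were higher and 1 lower by 1.5-fold, 42.9% of the list. Sall1 stood at 4.08 and 73.4 CPM, a ratio of 18.0 (15.3 to 21.3), and Sall4, a pluripotency factor known to bind hydroxymethylcytosine, at 40.5 and 134.6, a ratio of 3.33 (3.14 to 3.53). Lin28a, an RNA-binding protein of early embryonic cells, had a ratio of 2.20 (2.08 to 2.34). Ddb1 and Cul4b, parts of a ubiquitin ligase that modifies TET proteins, had ratios of 0.602 (0.579 to 0.626) and 0.700 (0.634 to 0.772), and Uhrf2, a hydroxymethylcytosine reader, one of 1.19.

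Of 16 genes that make, use or carry alpha-ketoglutarate, ascorbate and their precursors, 1 was higher and 2 lower by 1.5-fold, 18.8% of the list. The serine synthesis gene Psat1, whose product also makes alpha-ketoglutarate, had a ratio of 0.629 (0.593 to 0.668), the dehydrogenase gene Idh1 one of 0.664 (0.621 to 0.710) and the glucose transporter gene Slc2a1 one of 0.760 (0.743 to 0.777). The ascorbate transporter genes Slc23a1 and Slc23a2 were among the highest, at 1.68 (0.923 to 3.12) and 1.37 (1.12 to 1.69).

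Among 15 measured genes for other dioxygenases of the same cosubstrate, none was higher and 3 were lower by 1.5-fold, 20.0% of the list. The collagen-modifying Plod1 stood at 21.6 and 8.48 CPM, a ratio of 0.392 (0.341 to 0.450), and P4ha1 at 50.2 and 21.5, a ratio of 0.428 (0.392 to 0.466). The oxygen sensor gene Egln3 had a ratio of 0.611 (0.488 to 0.761). The highest were the histone demethylase genes Kdm4c at 1.48 and Kdm6a at 1.28 and the RNA demethylase gene Alkbh5 at 1.27. Both collagen-modifying genes were lower in the library that also had the lower summed level of matrix markers, 38.8 against 1194 CPM, and the part of cell makeup in their ratios was not tested.

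**Figure D5:**
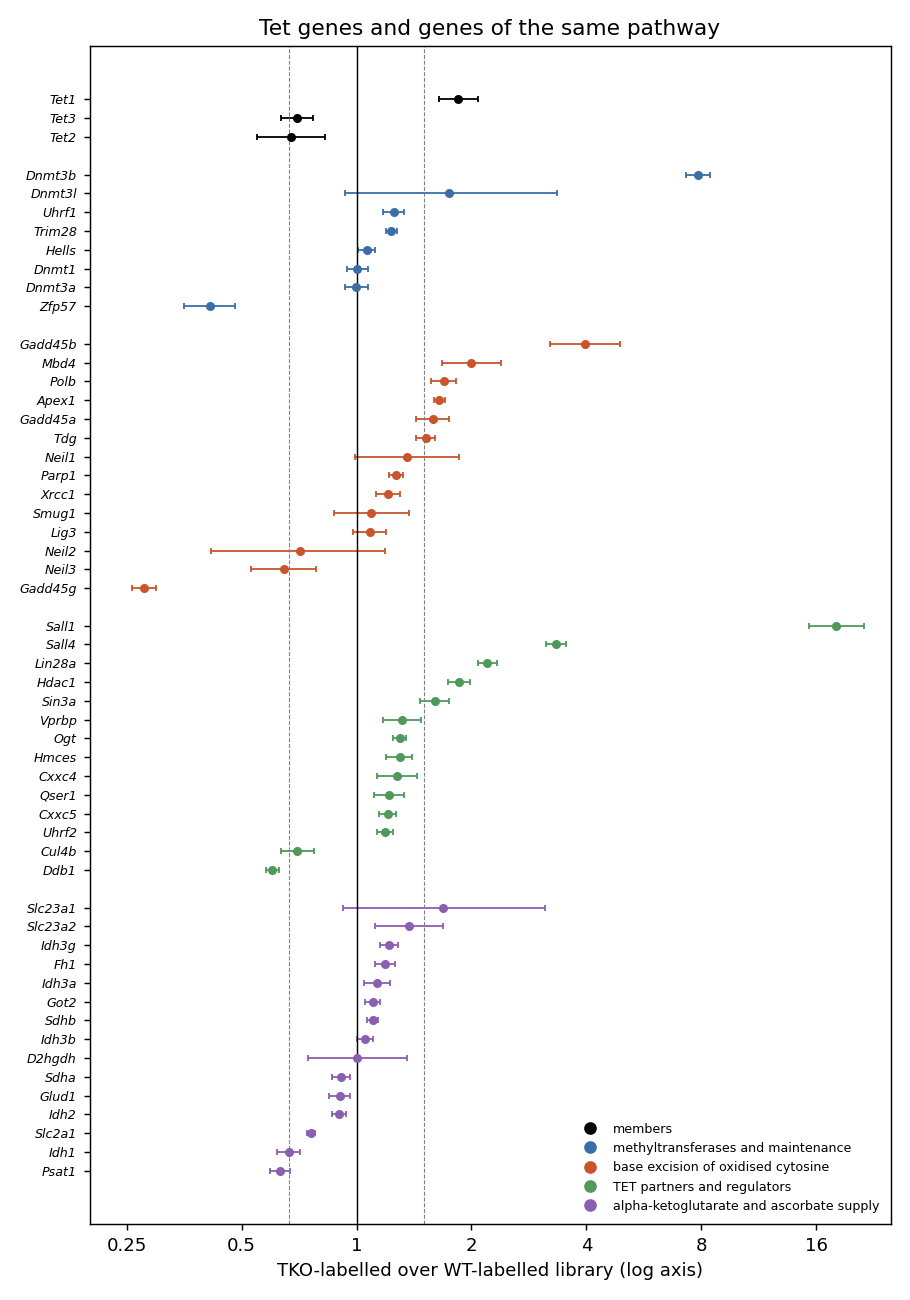
TKO-labelled over WT-labelled level (x axis, log scale) for the 3 members and for named and other genes of 4 lists, each with at least 10 UMIs (y axis, ordered within each list), with 95% counting intervals and dashed lines at 1.5-fold. Tet1 stands at 1.85, Tet2 at 0.674 and Tet3 at 0.698, while Sall1 at 18.0 and Dnmt3b at 7.83 lie far to the right and Gadd45g at 0.278 to the left.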

How the data were processed

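For each library the authors deposited a table of raw counts, genes by cells, taken here as UMI counts. The submitters' processing notes name Seurat 3 and mm10 but not what each was used for; the aligner and chemistry are not stated in the sources at hand. No deposited cell had under 644 genes or 2396 UMIs. The TKO-labelled table named 3224 barcodes but held 3223 values per row, so cells were read by position. In 116 row names the tables differed in a number added to repeated symbols, none of them a member.

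Cells with over 15% mitochondrial UMIs (3 and 26) were left out, and so were the 3 and 1 cells that Scrublet (scanpy 1.11.5) marked. That is under 0.5% of cells, so the caller was taken not to have worked, and dropping the top 6% of scores was tried. Levels carry exact Poisson intervals, ratios exact binomial (Mantel-Haenszel for the alternatives within a kind) and shares Clopper-Pearson ones, computed with scipy 1.17.1 and tested on simulated data. For the gates, cells were thinned to 4000 UMIs; a cell passing several gates (1485 and 97) went to the list with the largest share of its markers held, and 350 and 17 with equal shares were left out. Each gated kind with at least 30 cells had at least 4 of its own markers among its 10 leading genes. Cells entered a kind by holding these markers in the same thinned counts, so this was largely set by the gate and does not check it. The mesothelium-like kind rested on 5 of 8 markers. Its cells held a median of 3 of them and a median of 3 lateral mesoderm markers, and 3 is a larger share of a list of 8 than of a list of 10. Members and lists were chosen with earlier results of these data known. Named genes are the members, all single markers, the 3 highest and 3 lowest ratios per list among genes with at least 20 UMIs, and the 5 genes most like each member; Tdg was added and 1 gene is not reported here. Of 70 listed genes, 2 symbols matched no row and Prdm14 had under 10 UMIs.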

Additional observations from a re-analysis of the deposited data

How the results depend on the processing

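The TKO over WT ratio of Tet1 lay between 1.68 and 1.96, that of Tet2 between 0.614 and 0.895 and that of Tet3 between 0.636 and 0.799 over 9 alternatives each (all deposited cells, doublet scores, deepest cells, 2 other scalings, equal weight per cell and, chosen after seeing the data, 3 subsets of gated cells). The highest Tet2 and Tet3 values, 0.895 and 0.799, came from the cells passing no gate, and the cause was not tested. Within lateral mesoderm-like cells alone, over 6 alternatives, the ratio lay between 1.12 and 1.87 for Tet1, 1.01 and 1.33 for Tet2 and 0.428 and 0.505 for Tet3. With gates of at least 2 markers or on all UMIs, endothelial-like cells joined, and the pooled ratios were 1.68 and 1.90 for Tet1, 0.931 and 0.920 for Tet2 and 0.497 and 0.588 for Tet3. In TKO-labelled formative epiblast-like cells the Tet1 ratio to other cells lay between 1.47 and 1.99, and that of Tet3 turned from 0.673 to 1.08 at 2500 UMIs per cell, where 95 cells passed the gate. Counting markers on all UMIs gave 1.19 for TKO-labelled Tet1 by number of pluripotency markers. At 2-fold, 9 pathway genes passed in place of 23. Levels of kinds with fewer than 30 cells are limited by depth. No paired analysis was possible because each genotype had 1 library, and for the same reason no library could be left out.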

Other observations

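Over the 11 profiles of gated kind by library with at least 50 cells, the 3 members did not share a pattern. Pearson's r of log2(CPM + 1), with CPM the UMIs scaled to a total of 1000000, was -0.33 between Tet1 and Tet2, -0.34 between Tet1 and Tet3 and 0.22 between Tet2 and Tet3. These profiles share 2 libraries, so the values are descriptions. Among 7161 genes, those most like Tet1 were Nr6a1 (r = 0.952), an orphan nuclear receptor gene of early embryos, Flcn (0.951), Msi1 (0.947), an RNA-binding protein gene of stem and neural cells, Fbxo21 (0.941) and Tmem126a (0.913). Nr6a1 ranged from 5.98 to 51.3 CPM over the WT-labelled and from 49.0 to 142.7 over the TKO-labelled profiles, so its likeness to Tet1 followed the libraries as well as the kinds. Tmem126a did not overlap between them at all, at 42.2 to 99.5 and 118.0 to 164.0.

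Those most like Tet2 were Hoxb3os (0.885), Gna13 (0.880), a G protein subunit gene, Igfbp4 (0.873), a binding protein gene for insulin-like growth factors, Mpc2 (0.871) and Hoxb4 (0.870), a trunk patterning gene. Hoxb4 ranged from 2.80 to 48.0 CPM in the WT-labelled and from 0 to 38.5 in the TKO-labelled profiles. Those most like Tet3 were Pacsin2 (0.957), Tmed3 (0.938), Rabac1 (0.936), Tgfbr3 (0.935), a TGF-beta coreceptor gene, and Sparc (0.932), a matrix protein gene. Sparc ranged from 53.6 to 1498 in the WT-labelled and from 106.2 to 650.5 in the TKO-labelled profiles.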
